A study of Mus musculus with 4 samples.

Results

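The Dppa genes (developmental pluripotency associated) are transcribed in early embryos, germ cells and ES cells, and 4 of them were followed here: Dppa2, Dppa3, Dppa4 and Dppa5a. They were read by all probes, other than control spots, that carry one of these gene symbols in the array files, which name 30199 genes. There were 7 such probes among 39429 on the array, namely 2 for Dppa2, 1 for Dppa3, 3 for Dppa4 and 1 for Dppa5a. Dppa2 and Dppa4 are small nuclear proteins with a SAP DNA-binding domain. They form a heterodimer, are encoded side by side on chromosome 16, bind promoters rich in CpG, and act upstream of Dux and of the genes that mark 2-cell-like (2C) ES cells. Dppa3, also called Stella or PGC7, is a maternal factor that protects methylated DNA in the zygote and restrains Uhrf1, the cofactor of the maintenance methyltransferase Dnmt1. Dppa5a, also called Esg1, is an RNA-binding protein with a KH domain and a long-used marker of ES cells.

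E14tg2a cells, an established line of mouse ES cells, were grown in medium with serum and LIF, on gelatin and without feeder cells according to the methods. They were left untreated (0 h), transfected with control siRNA for 72 h, or transfected with siRNA against mouse Rif1 for 48 h or for 72 h. Rif1 regulates replication timing, and the arrays address how its depletion changes transcription in ES cells, in particular that of 2C genes. According to the methods, a pair of siRNAs was used together against Rif1, and the cells were harvested at 48 or 72 h. Each condition had 1 array of Cy3-labeled cRNA (4 arrays), so the differences below come without replicates and without p-values, and with so few arrays their precision is limited. No control siRNA array of 48 h was among the samples.

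The level of a probe is its background-subtracted signal divided by the 75th percentile of its array. The Rif1 probe, which reads the targeted gene, had levels of 5.55 (untreated), 5.42 (control siRNA), 2.15 (Rif1 siRNA, 48 h) and 4.15 (Rif1 siRNA, 72 h). Rif1 was thus 1.34 lower on the log2 scale at 48 h (log2 difference -1.34) and only slightly lower at 72 h (-0.39). The share of spots well above background went from 58.8% (untreated) and 62.8% (control siRNA) to 71.5% (48 h) and 74.1% (72 h), so it moved with Rif1 siRNA, and 0 spots were saturated. All 7 Dppa probes were well above background on all 4 arrays, and all 7 passed the filter on dim probes, as did 27706 of all probes. The error given with each level is the error estimate of the scanner software for that spot. It came to 10.0 to 10.4% of the signal for the Dppa probes, and to between 0.204 and 0.211 for a log2 difference of one probe between 2 arrays. Repeated spots of one probe within an array differed less, with a median SD of 0.062 to 0.067 (log2), and neither value covers the difference between cultures.

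The stretch that each probe reads is shown because the probes of Dppa2 and Dppa4 lie in different parts of their transcripts, whereas Dppa3 and Dppa5a have a single probe each. Each probe has 60 bases, of which 30 are given 5′ to 3′ from the array files, with their mm9 positions. Capitals mark AATAAA, the polyadenylation hexamer, searched in the probe as written. It is present in 12.6% of all probes, so its presence in the Dppa3 and Dppa5a probes is a description only.

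Dppa2 A_55_P2059730, chr16:48317579-48318787: tcctgaatgtgttcagagcaacaagaagat

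Dppa2 A_66_P136844, chr16:48319381-48319440: accacttagccagtactgatgtatgtttga

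Dppa4 A_55_P2065549, chr16:48291368-48291427: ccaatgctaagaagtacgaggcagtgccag

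Dppa4 A_66_P101192, chr16:48293216-48293867: ataagaacaagatcttgactaagagcctcg

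Dppa4 A_55_P2158607, chr16:48294346-48294405: atctggcttgtggcttttgtttttgttatc

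Dppa3 A_55_P2091496, chr6:122580207-122580266: ccagggctgaggAATAAAgtaaatagaatt

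Dppa5a A_55_P2028171, chr9:78214866-78214925: gttaccactctaAATAAAaAATAAAattga

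The first Dppa2 probe covers 1209 bases of the genome with its 60 bases, and the second Dppa4 probe covers 652, so both cross an exon junction. The other probes lie in uninterrupted stretches of 60 bases. All 7 probes carry a RefSeq accession that RefSeq assigns to the same gene symbol. None of the Dppa2 and Dppa4 probes shared a word of 16 bases with another probe on the array.

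Dppa2 was the Dppa gene with the largest difference between arrays with and without Rif1 siRNA, and both of its probes were higher at both times. The junction probe A_55_P2059730 was at 1.96 ± 0.196 without treatment and 1.83 ± 0.183 after control siRNA, and at 2.96 ± 0.296 and 2.76 ± 0.276 after Rif1 siRNA for 48 h and 72 h. The other probe, A_66_P136844, had 6.83 ± 0.683, 6.87 ± 0.687, 10.2 ± 1.02 and 9.66 ± 0.966 in the same order. On both probes the Rif1 siRNA arrays lay above both other arrays, and the error intervals of these pairs did not overlap. The levels of different probes are not set against each other here, since probes differ in affinity.

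Against control siRNA at 72 h, the log2 difference of Dppa2 was 0.59 ± 0.204 for the junction probe and 0.49 ± 0.204 for the other (errors of the software). Their mean of 0.54 corresponds to 1.46-fold. At 48 h the differences were 0.70 and 0.57, with a mean of 0.63 or 1.55-fold, against the same control array of 72 h. In control siRNA cells the 2 probes differed from untreated cells by -0.10 and 0.01, less than the error. From 48 to 72 h they differed by -0.10 and -0.08, also less than the error. Both comparisons with Rif1 siRNA use the same control array, so they are not independent. With untreated cells as the reference, the means were 0.50 at 72 h and 0.59 at 48 h.

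The size of the Dppa2 difference was read against all probes. Among the 24312 probes that passed the filter and were well above background on both arrays, 4.41% had a log2 difference at 72 h at least as high as that of the junction probe and 5.53% as that of the other. At 48 h these shares were 4.21% and 5.69% of 24266 probes. The median of all probes was -0.07 at both times. Where no Rif1 siRNA was used, that is between control siRNA and untreated cells, the log2 differences of 22548 probes had an SD of 0.256, and all 4 Dppa2 values were larger than this. That comparison includes transfection and 72 h of culture, and it rests on a single pair of arrays.

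**Figure D1:**
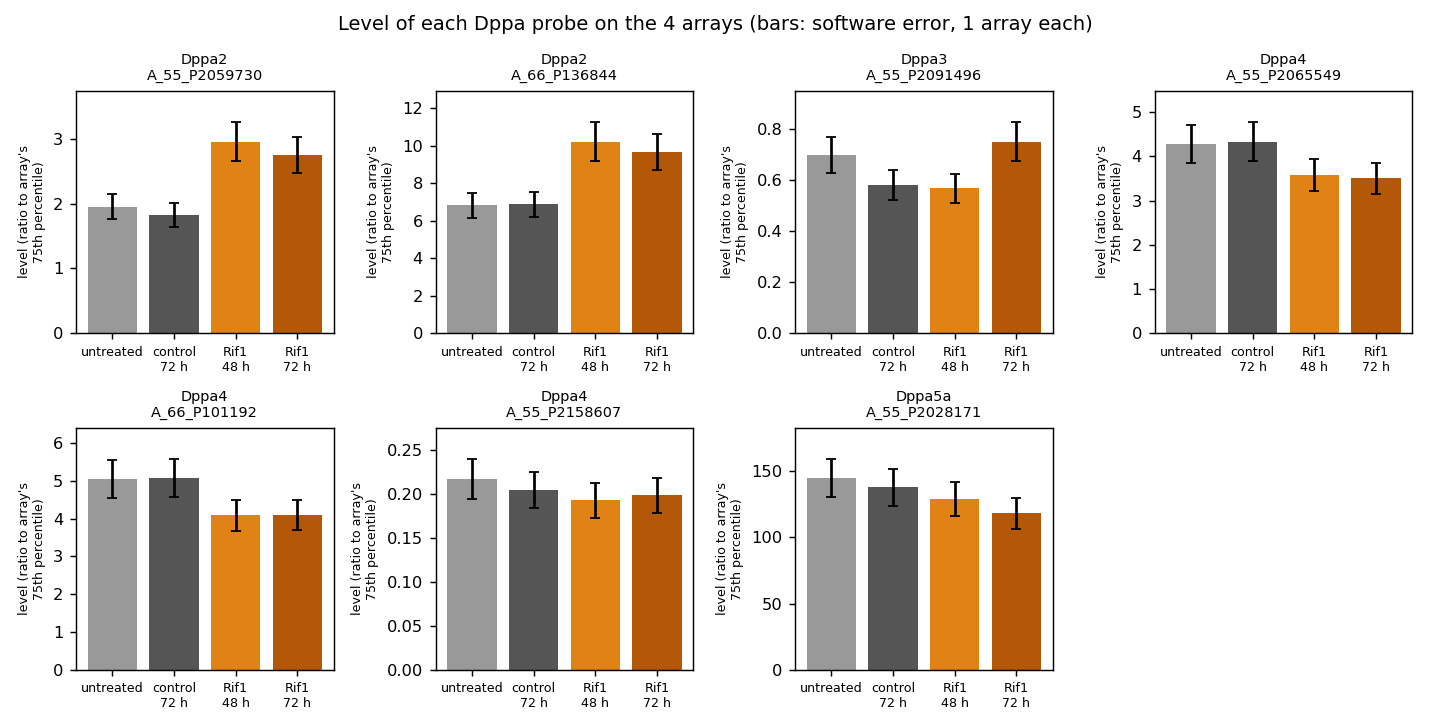
Level of each of the 7 Dppa probes (ratio to the 75th percentile of the array) on the 4 arrays, 1 bar per array, with the software's error as the error bar. Both Dppa2 probes are higher on the 2 Rif1 siRNA arrays (2.96 and 2.76 against 1.83 for the first), and the first 2 Dppa4 probes are lower there.

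Dppa4, the partner of Dppa2, was lower with Rif1 siRNA on 2 of its 3 probes, by less than Dppa2 was higher, and the third probe did not differ beyond its error. The junction probe A_66_P101192 was at 5.06 ± 0.506 without treatment and 5.07 ± 0.507 after control siRNA, and at 4.10 ± 0.410 after Rif1 siRNA for 48 h as well as for 72 h. Probe A_55_P2065549 had 4.29 ± 0.429, 4.34 ± 0.434, 3.59 ± 0.359 and 3.50 ± 0.350. On both probes the Rif1 siRNA arrays were the lowest, and the untreated and control siRNA arrays differed by 0.00 and 0.01 on the log2 scale. The third probe, A_55_P2158607, which lies farthest along the transcript, had levels of 0.217, 0.204, 0.192 and 0.198, and these 4 values lie within their errors of each other.

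At 72 h the log2 differences of Dppa4 against control siRNA were -0.31 ± 0.204 for each of the first 2 probes and -0.04 ± 0.207 for the third, which is a mean of -0.22. At 48 h they were -0.31, -0.27 and -0.09, with a mean of -0.22. The first 2 probes were thus 1.24-fold lower at 72 h, a difference of 1.5 times the software's error. Among all measured probes, 10.5% were at least as low at 72 h as either of them. The third probe disagreed with them in size, and with the median over probes in place of the mean the 72 h difference of Dppa4 was -0.31.

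Because the comparison of Dppa2 with Dppa4 is made within each array, a factor that scales all probes of an array alike cancels out. Quantile normalization is not such a factor and can change the comparison. The log2 ratio of Dppa2 to Dppa4 was higher by 0.76 with Rif1 siRNA at 72 h than with control siRNA, which is 1.69-fold. At 48 h it was higher by 0.86. Over single pairs of probes the change at 72 h was between 0.54 and 0.90, and at 48 h between 0.66 and 1.00. Control siRNA and untreated cells differed in it by -0.02, with single pairs between -0.11 and 0.09. These values describe an unequal difference of the pair between single arrays, without replicates, and not which of them moved.

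Dppa3 showed no difference that held at both times. Its probe was at 0.698 ± 0.0700 without treatment and 0.579 ± 0.0580 after control siRNA, and at 0.568 ± 0.0568 and 0.750 ± 0.0750 after Rif1 siRNA for 48 h and 72 h. The highest and the lowest of the 4 levels were thus both measured with Rif1 siRNA, and untreated cells lay close to the 72 h value. Against control siRNA the log2 difference was 0.37 ± 0.204 at 72 h (1.295-fold) and -0.03 ± 0.204 at 48 h. Against untreated cells the differences were 0.10 and -0.30, so the value at 72 h depends on which of the 2 arrays without Rif1 siRNA is the reference. Control siRNA itself was lower than untreated cells (-0.27). At 72 h, 7.90% of all measured probes were at least as high.

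One probe without a gene name, A_55_P2179069 on chromosome 10 (71261927 to 71261986), shared a run of 17 bases with the Dppa3 probe. Its levels were 0.771, 0.638, 0.548 and 0.429 in the order above. It was therefore lower at 72 h (-0.57), where the Dppa3 probe was higher.

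The Dppa5a probe gave a bright signal, at a percentile of 99.0 to 99.2 among the levels of its array under all 4 conditions. It was at 145 ± 14.5 without treatment and 138 ± 13.8 after control siRNA, and at 129 ± 12.9 and 118 ± 11.8 after Rif1 siRNA for 48 h and 72 h. The levels were lowest with Rif1 siRNA, but neighbours in this order overlap within their errors. The log2 difference against control siRNA was -0.22 ± 0.204 at 72 h (1.17-fold lower) and -0.09 ± 0.204 at 48 h. At 72 h, 20.3% of all measured probes were at least as low, and at 48 h 46.3%. Under quantile normalization the difference at 48 h had the other sign (0.04), and that at 72 h was -0.06.

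The Dppa5a probe shared words of 16 bases with 4 other probes. A probe without a gene name on chromosome 1 (A_55_P2042297; 13052538 to 13052597) is written on the same strand and had levels of 100.1, 102 and, with Rif1 siRNA, 88.7 and 85.2. Its log2 difference at 72 h was -0.26, which is close to that of Dppa5a. Another, Cd209f, had levels near background (0.0162 with control siRNA), and the other 2 share the opposite strand. A transcript with this sequence could bind the Dppa5a probe as well, and how much of its signal comes from Dppa5a itself was not tested.

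**Figure D2:**
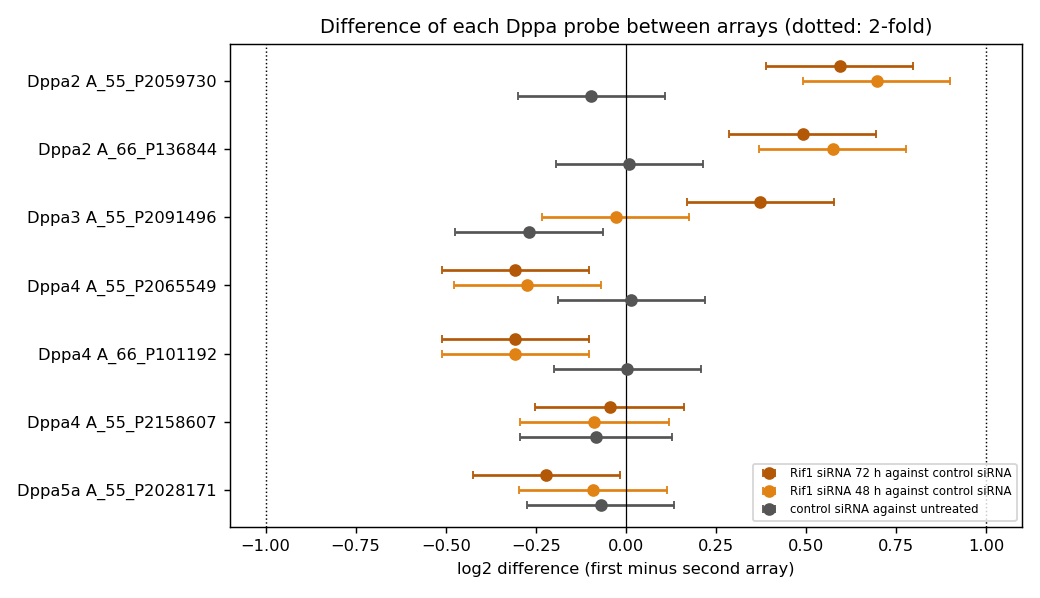
Log2 difference of each Dppa probe (x axis) for Rif1 siRNA at 72 h and at 48 h against control siRNA and for control siRNA against untreated cells, with bars for the software's error. The Dppa2 points at 72 h and 48 h (0.49 to 0.70) lie right of 0 and no point passes the dotted lines at 2-fold.

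None of the 7 Dppa probes was over 2-fold higher or lower with Rif1 siRNA. Over all 27706 probes that passed the filter, 2.83% were over 2-fold higher at 72 h than with control siRNA and 1.00% over 2-fold lower. At 48 h the shares were 3.17% higher and 1.19% lower. Between control siRNA and untreated cells, where 0 of the 7 Dppa probes passed 2-fold either, they were 0.585% and 1.03%. These shares depend on the background correction: with another one (normexp, see the closing part), 533 in place of 1061 probes passed 2-fold at 72 h. The differences of the 7 probes at 72 h ran from -0.31 to 0.59 with a median of -0.04, near the median of all probes. At 72 h, 6 of the 7 differed by more than the software's error and 2, both of Dppa2, by more than 2 times that error. At 48 h these numbers were 4 and 2, and between control siRNA and untreated cells 1 and 0. The share of all probes beyond these error limits was not counted, so the numbers are a description only. No Dppa gene spanned over 1 on the log2 scale across the 4 arrays (0.63 for Dppa2, 0.40 for Dppa3, 0.24 for Dppa4 and 0.29 for Dppa5a), so genes of similar pattern were not sought.

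**Figure D3:**
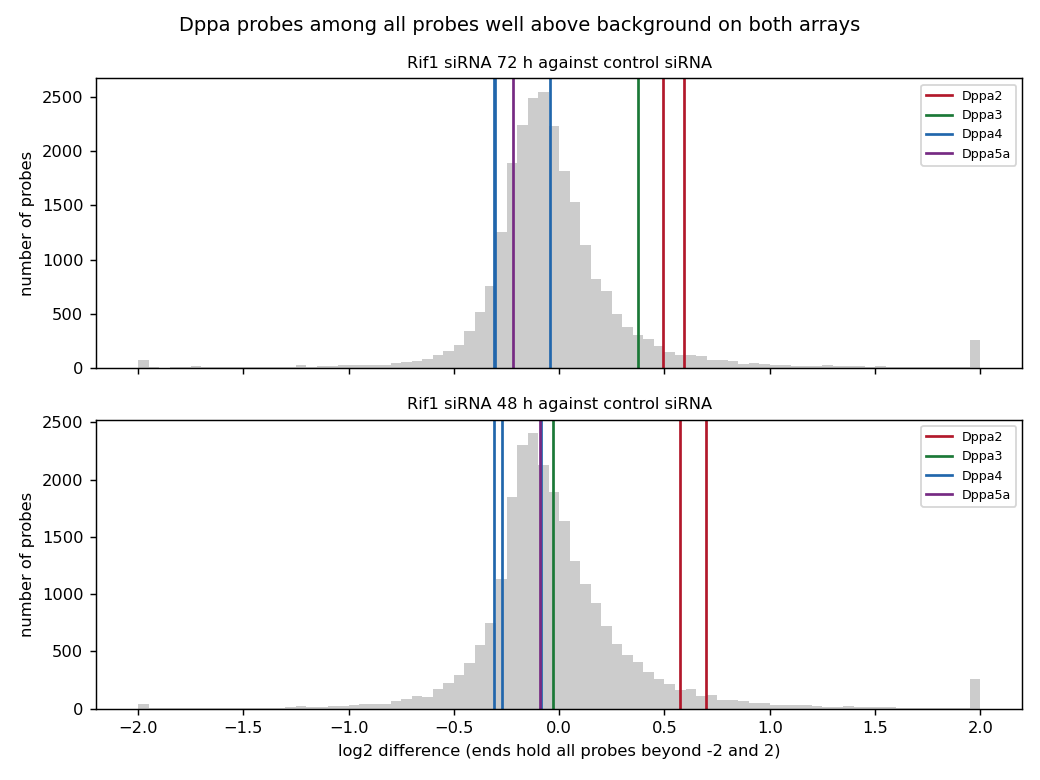
Number of probes by log2 difference against control siRNA at 72 h (top) and 48 h (bottom), for probes detected above background on each array, with the Dppa probes as vertical lines. Dppa2 lies in the upper tail (4.41% and 5.53% of probes are at least as high at 72 h), and the other lines lie in or near the body of the distribution.

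Genes described as acting downstream of Dppa2 and Dppa4 were examined next. The list holds 23 symbols, most of them 2C genes, with Nkx2-5, Syce1 and Mael as targets that ES cells need the pair for, and 20 had a probe. Duxf3, Zscan4b and Zscan4d had none under these symbols. Many of its genes belong to the families that the study itself names, so the list is no independent evidence of direction. At 72 h, 22 of its 29 probes were over 2-fold higher than with control siRNA, 16 measured on both arrays and 6 as lower bounds, and 0 were over 2-fold lower. The median log2 difference was 3.91 over the 22 measured probes (15.0-fold). At 48 h the counts were equal and the median was 3.77. Between control siRNA and untreated cells, 8 of the 29 were over 2-fold higher, with a median of 0.88. Probes of homologous family members can read each other's transcripts.

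Dux encodes the homeobox factor that activates 2C genes and that Dppa2 and Dppa4 act upon. Both of its probes were dim. A_55_P1983444 was not well above background in untreated and control siRNA cells and had levels of 0.0435 at 48 h and 0.0377 at 72 h, at least 2.38-fold higher at 72 h than with control siRNA. A_55_P2183061 had levels of 0.0219 with control siRNA, 0.0283 at 48 h and 0.0285 at 72 h, a log2 difference of 0.38 at 72 h. Zscan4f, a gene of the family that marks 2C-like cells, had levels of 3.33, 6.84, 81.4 and 89.3, and its difference at 72 h was 3.71.

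The 3 listed targets outside the 2C group were within 2-fold at both times. Syce1, a component of the synaptonemal complex of meiosis, had levels of 9.77, 8.48, 13.5 and 12.8, and it was higher by 0.60 at 72 h and 0.67 at 48 h (log2). Mael, a factor of the piRNA pathway, had 3.32, 3.29, 4.78 and 4.88, with differences of 0.57 and 0.54. Both were highest on the 2 Rif1 siRNA arrays. An effect of Dppa2 or Dppa4 on these or on the other listed genes was not tested. Nkx2-5, a cardiac homeobox gene, had 0.0810, 0.0839, 0.0578 and 0.0804, with differences of -0.06 and -0.54.

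The genes that act with Dppa3 on DNA methylation were within 2-fold at both times. The list of 10 genes had 21 probes, of which 20 passed the filter, and 0 of these were over 2-fold higher or lower in either comparison. The median at 72 h was -0.11, and the range was -0.28 to 0.07. Uhrf1, which Dppa3 displaces from chromatin, had levels of 18.6, 18.1, 15.8 and 16.4 on its brighter probe (-0.15 at 72 h). At 48 h the range was -0.47, for a probe of the de novo methyltransferase Dnmt3b, to 0.41, for a probe of the dioxygenase Tet2. The lowest value at 72 h was that of Dnmt3l, a cofactor of Dnmt3b (-0.28). The 12 pluripotency genes had 17 probes, and 0 of them passed 2-fold at 72 h or at 48 h, with a median of -0.03 at 72 h. Their differences at 72 h ran from -0.69, for a dim Nanog probe, to 0.59, for Pou5f1. The Pou5f1 value was as high as that of the Dppa2 junction probe (0.59). At 48 h the range was -0.54 to 0.69, the latter for a dim Esrrb probe, with a median of 0.12.

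Dppa5a belongs to a family of KH-domain genes expressed in oocytes and ES cells, and these were listed together with genes near it on chromosome 9. Khdc3 (Filia), which has a role in genome stability, had levels of 10.7, 10.3, 10.0 and 8.63, a difference of -0.26 at 72 h. Ooep, a maternal factor, had 0.0692, 0.0616, 0.0481 and 0.0519, a difference of -0.25. Khdc1a and Khdc1b did not stand well above background in these cells. Of the 9 probes of this list that passed the filter, 0 were over 2-fold higher or lower at 72 h, and their median was -0.11. At 48 h 1 was lower, Khdc1c, a dim probe that was not well above background on that array.

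**Figure D4:**
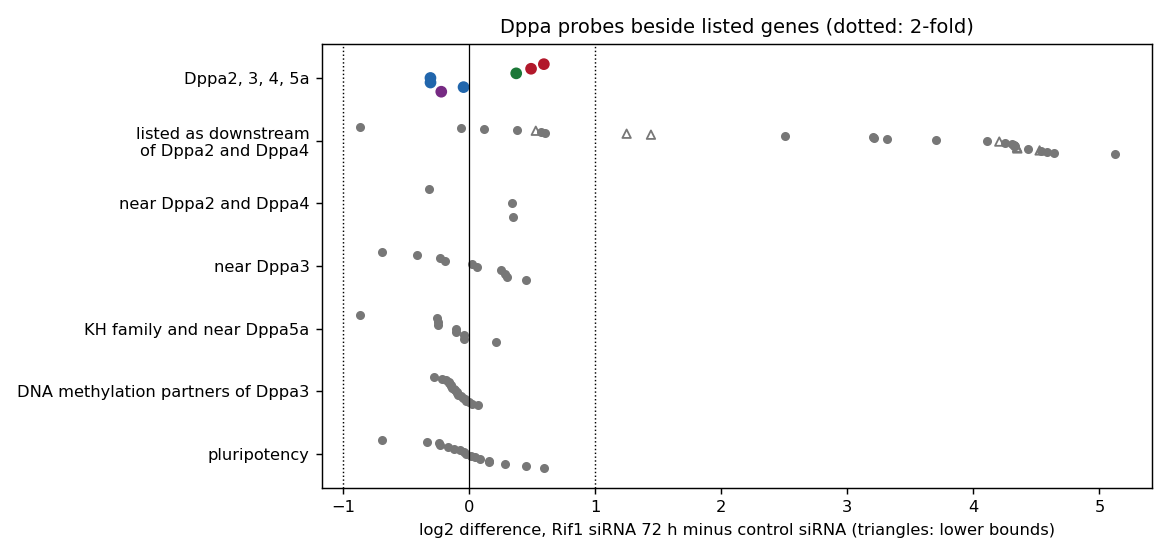
Log2 difference at 72 h of Rif1 siRNA against control siRNA for the Dppa probes and for probes of the listed genes that passed the filter, 1 point per probe, with triangles for lower bounds. The genes listed as downstream of Dppa2 and Dppa4 reach a median of 3.91, whereas the Dppa probes and the other 5 lists stay within 2-fold.

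Neighbouring genes were compared within 500 kb on either side on mm9. Around Dppa2 and Dppa4, 7 other probes were placed, of which 2 passed the filter. Morc1, which encodes a germ cell protein that silences transposons, had levels of 4.63, 3.91, 3.61 and 3.13 and a difference of -0.32 at 72 h. The other, a probe without a gene symbol, differed by -0.14. Neither was higher with Rif1 siRNA, unlike Dppa2. A list of genes farther along this region had 7 probes, of which 3 passed, and 0 of these were over 2-fold different at either time. They included Morc1 and Cd47, a surface protein that limits phagocytosis (0.35 and 0.34 on 2 probes at 72 h). Another Cd47 probe, A_55_P2046822, did not pass the filter and was well above background only with control siRNA (0.0226), at least 4.17-fold higher there than at 72 h.

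Around Dppa3, 28 of 38 other probes passed the filter, and 0 of them were over 2-fold higher or lower at 72 h or at 48 h. Nanog, a core pluripotency factor, was read by 3 probes there. The brightest had levels of 40.3, 43.4, 52.1 and 52.9 (0.29 at 72 h). The second, A_55_P2007703, had 5.21, 5.79, 8.20 and 7.91 (0.45 at 72 h and 0.50 at 48 h). The remaining Nanog probe was dim and differed by -0.69, the lowest value in the window, and its level at 72 h was 0.0178. The list of genes near Dppa3, which includes Nanog and Gdf3, had 10 probes that passed, with a median of 0.04 at 72 h. Gdf3, a TGF-beta ligand, differed by -0.23 on its brighter probe, with levels of 25.3 with control siRNA and 23.8 and 21.5 with Rif1 siRNA.

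Around Dppa5a, 23 of 30 other probes passed, and 3 of these were over 2-fold higher at 72 h, 2 of Gm10639 as lower bounds and 1 of D9Wsu90e. All 3 were dim, with levels at or below 0.0436 at 72 h. D9Wsu90e was 2.38-fold higher at 72 h and within 2-fold at 48 h (0.23 on the log2 scale). At 48 h 3 probes were over 2-fold higher as well, but only 1 of them, of Gm10639, was among those of 72 h (at least 3.15-fold). The others were Gcm1, a transcription factor of the placenta (2.23-fold, with levels of 0.0384 untreated, 0.0220 with control siRNA and 0.0490 at 48 h, so that the control array was also below the untreated one), and Gsta2, a glutathione transferase (at least 2.16-fold). Gsta2 at 72 h (at least 1.94-fold) and the other Gm10639 probe at 48 h (at least 1.25-fold) were lower bounds. Both may thus exceed 2-fold at each time, and the counts do not show a difference between the times for them. Over all probes that passed the filter, 2.83% were over 2-fold higher at 72 h and 3.17% at 48 h. The nearest gene measured, Ooep, lay 9.94 kb from Dppa5a and was lower, as described above.

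**Figure D5:**
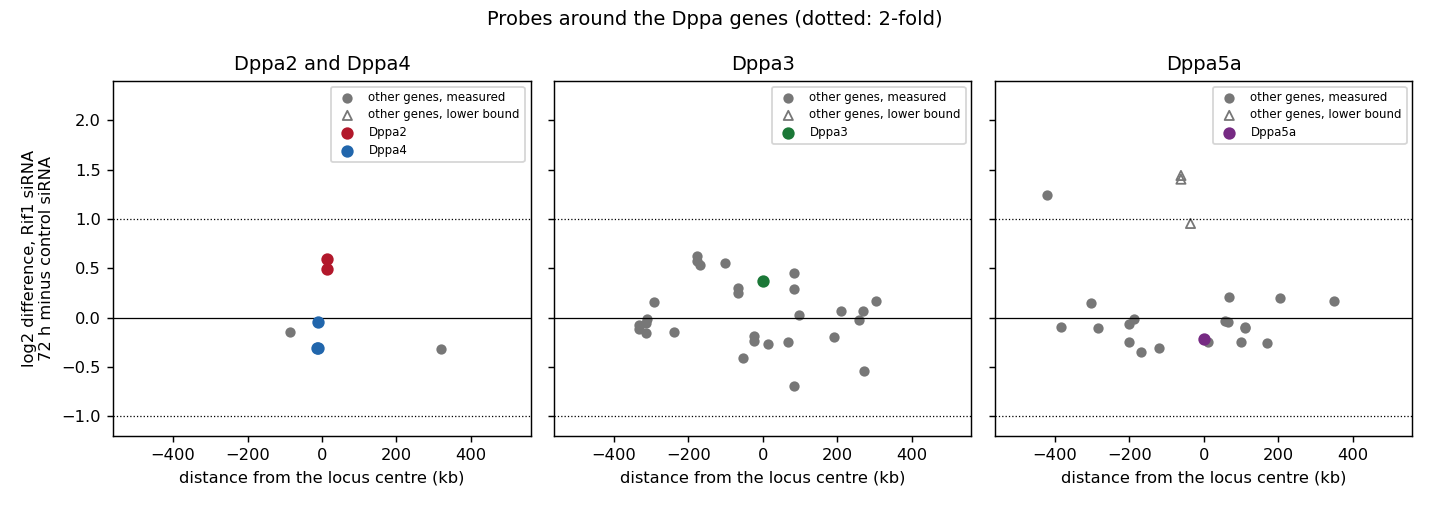
Log2 difference at 72 h of Rif1 siRNA against control siRNA for probes that passed the filter, by distance in kb from the centre of the Dppa probes of each locus. Dppa2 (0.49 and 0.59) and Dppa4 (-0.31 to -0.04) lie apart at the same locus, and the other probes around Dppa3 lie within 2-fold.

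Markers of the cell types that these cultures could hold were measured on the same arrays. All 12 probes of 7 ES cell markers passed the filter, 0 were over 2-fold different at 72 h, and their summed level was between 165 and 194 on the 4 arrays. Their log2 differences at 72 h ran from -0.69 (a dim Nanog probe) to 0.59 (Pou5f1). Of 10 probes for 2C-state markers, 9 were over 2-fold higher at 72 h, and the sum of their levels went from 12.4 (untreated) and 21.5 (control siRNA) to 249 (48 h) and 288 (72 h). Both this sum and Dppa2 were higher with Rif1 siRNA than without. Between control siRNA and untreated arrays, and between 72 h and 48 h, Dppa2 differed by less than the error. The part of these cells in the Dppa2 difference was not tested. In RNA from whole cultures, a larger share of cells with a transcript and more of it per cell cannot be told apart.

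Of the 7 fibroblast markers, 5 passed the filter, 0 were over 2-fold different at 72 h, and Lum and Postn did not stand well above background on the 4 arrays. Col1a1, the main collagen of fibroblasts, was at 0.340, 0.341, 0.493 and 0.601. Col1a2 was at 0.316, 0.309, 0.451 and 0.545. All 4 fibroblast probes measured on both arrays were higher with Rif1 siRNA than with control siRNA, with a median log2 difference of 0.73 at 72 h and 0.42 at 48 h. At 72 h Col1a1 and Col1a2 differed by 0.82 each and Dcn by 0.65, each more than Dppa2, and Thy1 by 0.06. The summed level of the list, between 3.81 and 4.46, came mostly from Thy1 (3.11 to 3.50), which was highest in untreated cells. Dcn at 48 h (0.0348) was also not above untreated cells (0.0357). That of the primitive endoderm list was between 1.60 and 2.67, lowest at 72 h. Its 7 measured probes had a median of -0.21 at 72 h (-0.34 to -0.11) and 0.24 at 48 h against control siRNA, and of -0.51 in control siRNA against untreated cells (-0.83 to -0.18). Of 8 trophoblast probes that passed, 2 were over 2-fold higher at 72 h, those of the transcription factors Gata3 (1.52) and Cdx2 (1.08). Elf5 was well above background only with Rif1 siRNA, at levels (0.0112 and 0.00976) below the lowest measurable on the control siRNA array (0.0159), so no difference can be given. All 7 trophoblast probes measured were higher with Rif1 siRNA than with control siRNA at both times, from 0.24 to 1.52 at 72 h (median 0.34) and from 0.36 to 1.85 at 48 h (median 0.53). Both Eomes probes were lower at 72 h than in untreated cells (0.168 against 0.178, and 0.0295 against 0.0394). The list's summed level was between 8.33 and 11.02, highest at 48 h, and came mostly from the 2 probes of Krt8, a keratin. Of the primed state and germ layer probes, 0 of 7 passed 2-fold, with a summed level between 7.57 and 10.6. The part of these cells in the Dppa levels was not tested.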

How the data were processed

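The authors deposited the output of Agilent Feature Extraction 11.5.1.1 (default parameters), which gives the processed signal of each spot, an intensity after background subtraction and spatial detrending. A second deposited table holds these signals as a ratio to the array's 75th percentile. Positions are on mm9.

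Each signal was divided by the 75th percentile of the 43020 spots other than controls and taken to log2. Outlier spots were left out, and repeated spots of a probe were averaged. A probe not well above background on 1 array of a pair got, on that array, the higher of its own level and the lowest one that was; its fold change is a lower bound. The filter required a level above the 20th percentile on at least 1 array and a detected or compromised flag on 2 of 4. Differences over 2-fold were counted, without a test. A gene is the mean over its probes. Alternatives are given in the closing part. The steps were tested on simulated data. Software was Python 3.11.15 (pandas 2.3.3) and R 4.3.3 (limma 3.58.1).

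The probes named are all those of the Dppa genes, Rif1 and genes of fixed lists. The members and lists were chosen with earlier results of these data known. Of 29149 probes with a RefSeq accession, 27508 matched the RefSeq gene table (GRCm38.p6), which was used for names only.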

Additional observations from a re-analysis of the deposited data

Results flagged for a closer look

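Dppa3 differed in direction between the times, with a log2 difference against control siRNA of 0.37 at 72 h and -0.029 at 48 h. Each value comes from 1 array, the value at 48 h is smaller than the software's error, and the difference between them was not tested.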

How the results depend on the processing

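No paired analysis was possible because there was a single array for every condition, without replicate numbers. Log2 differences count as moved beyond a shift of 0.256, the SD over all probes between control siRNA and untreated cells, and counts beyond 1.5 times. Of the 12 gene differences, only those of Dppa3 with Rif1 siRNA moved. The limit is larger than the Dppa4 and Dppa5a differences themselves, so it cannot tell whether these were kept. At 72 h Dppa5a went from -0.22 to -0.06 under quantile normalization and still did not count as moved. Keeping outlier spots or dim signals as given could not change the Dppa values, since no Dppa spot was an outlier or dim. With untreated cells as the reference, Dppa3 moved to 0.10 at 72 h and to -0.30 at 48 h, which follows from its lower level with control siRNA. The Dppa2 difference ranged from 0.50 to 0.57 at 72 h and from 0.59 to 0.66 at 48 h, and that of Dppa4 at 72 h from -0.31 to -0.22. Small values changed sign for Dppa5a at 48 h (0.04 under quantile normalization) and for Dppa4 between control siRNA and untreated cells (0.00 with the median over probes). The number of Dppa probes over 2-fold was 0 at either time under the alternatives that could change it (normexp, quantile normalization and untreated cells as the reference). The deposited ratios hold the same signals on nearly the same scale, so they repeat the main values. Over all probes, 1061 differed by over 2-fold at 72 h, against 533 under normexp and 451 with a 4-fold threshold, which counts fewer by construction; for normexp the cause was not tested. The 500 kb windows were chosen after seeing the data.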

Other observations

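Dppa1, which is not among the genes followed above, was read by 2 dim probes. A_55_P2133776 was well above background only with Rif1 siRNA, at levels of 0.0128 at 48 h and 0.0149 at 72 h, and no fold change was given since the lowest measurable level on the control siRNA array was 0.0159. A_52_P192405 was well above background only in untreated cells (0.0377).

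The probes of some genes listed as downstream of Dppa2 and Dppa4 disagreed. One Zfp352 probe (A_55_P2182056) was at least 20.3-fold higher at 72 h than with control siRNA, whereas the other (A_55_P2060343) had levels of 3.91, 4.13, 3.56 and 4.48. One Tdpoz1 probe (A_55_P1970284) had a log2 difference of -0.86 at 72 h, whereas the other (A_52_P332044), not well above background with control siRNA, was at least 1.44-fold higher.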
